A study of Mus musculus with 10 samples.

Results

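Myosin light chains are the small subunits that wrap around the neck of the myosin heavy chain. The 7 light chain genes Mylpf, Myl2, Myl1, Myl3, Myl6b, Myl4 and Myl6 and the 2 light chain kinase genes Mylk2 and Mylk4 were followed in skeletal muscle of mice with and without IMP2, an mRNA-binding protein encoded by Igf2bp2. These 9 genes were picked by symbol, after Ensembl identifiers had been matched to mouse symbols, from 43629 genes counted in each library, and all 9 were found. All mice were male C57BL/6, 6 weeks old, and had been fed a high-fat diet for 2 weeks, controls included. The 4 groups were wild-type (WT) total RNA with 3 libraries, total RNA of IMP2 knockout (KO) muscle with 3, RNA recovered from WT muscle by immunoprecipitation (IP) with a home-made IMP2 antibody with 2, and the same IP from KO muscle with 2. The IP from KO muscle was taken as the background of the antibody, which assumes that IMP2 protein is absent there. These data do not measure that protein. The sample labels call the knockout a null and the series text calls it muscle-specific. The deleted part of Igf2bp2, any Cre driver, the muscle used and any pooling of animals are not stated in the labels or the series text. The labels do not tell whether each library is a separate animal. The p-values therefore cover only the variation among these samples, some of which may be technical.

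Each myosin head binds 1 essential and 1 regulatory light chain, which stiffen its lever arm. Fast fibres use the products of Myl1 (essential) and Mylpf (regulatory), slow fibres use those of Myl3 and Myl6b (essential) and Myl2 (regulatory), and Myl4 encodes the essential chain of embryonic muscle and of the atrium. In skeletal muscle, Mylk2 encodes the calmodulin-dependent kinase that phosphorylates the regulatory chain and so potentiates force, and Mylk4 encodes a relative in the same kinase family.

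The libraries of total RNA held 9691580 to 14809788 gene counts and those of the IP 917462 (KO IP library 1) to 4037480 (KO IP library 2). For Igf2bp2 itself, 35, 37 and 48 reads were counted in the WT total RNA libraries against 21, 19 and 21 in the KO ones. By library size alone these were at least 2.36 against at most 2.17 CPM (counts scaled to a common library size). With the TMM factors used below, KO library 1 came just above WT library 1, so the genotypes overlapped on that scale. The IP libraries held 28 and 4 reads of Igf2bp2 (WT) against 9 and 25 (KO), which did not separate the genotypes. All 8 markers of skeletal muscle fibres were detected in every group, with summed levels of 81023 to 207386 CPM in total RNA, the lowest in WT library 3. Levels of single genes below are CPM with TMM factors of all 10 libraries. Markers of pancreatic islet reached a sum of 2376 CPM in KO library 1, and 2.00 to 7.05 CPM in the other total RNA libraries. Markers of adipocytes reached 974 CPM in WT library 2, and no other total RNA library exceeded 154 CPM. In tissue RNA, fewer cells of a type and less RNA per cell cannot be told apart.

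The fast and slow forms of each chain are close relatives in sequence, but the identical runs between their coding sequences were short. The coding sequences of Mylpf and Myl2 were identical at 71.7% of 495 aligned bases, those of Myl1 and Myl3 at 75.8% of 447 and those of Myl3 and Myl4 at 78.1% of 576. The longest run shared by Mylpf and Myl2 was 20 bases, and that of Myl3 and Myl4 was 29 bases. Windows of 90 coding bases around these runs are given 5′ to 3′ from the GENCODE M21 transcripts (GRCm38), with the longest identical run of each pair in capitals.
Mylpf, coding bases 41 to 130: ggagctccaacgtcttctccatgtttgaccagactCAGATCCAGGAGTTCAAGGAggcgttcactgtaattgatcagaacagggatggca
Myl2, coding bases 38 to 127: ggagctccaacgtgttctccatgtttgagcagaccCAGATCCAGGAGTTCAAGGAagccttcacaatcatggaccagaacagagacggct
Myl3, coding bases 388 to 477: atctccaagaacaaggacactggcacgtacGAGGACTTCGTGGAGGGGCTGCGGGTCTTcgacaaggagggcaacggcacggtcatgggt
Myl4, coding bases 355 to 444: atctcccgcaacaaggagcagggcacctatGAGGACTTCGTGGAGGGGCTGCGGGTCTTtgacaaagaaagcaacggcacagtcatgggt

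No stretch of 50 bases of the Myl3, Myl4, Mylpf or Mylk2 transcript occurred in a transcript of another gene. The share of such stretches found in other genes was 53.2% for Myl6, all in 5 predicted genes, and 32.1% for Myl1, all in the pseudogene Mylf-ps. Reads from those stretches can match several places, so the counts of Myl6 and Myl1 are uncertain in level. Exons of Myl2 overlap Ccdc63, those of Myl3 overlap Pth1r and those of Myl4 overlap Gm22000. The sources used here do not state whether the counting used strand.

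The fast pair made up most of the light chain signal in this muscle. Relative to the length of all annotated exons, the mean level in WT total RNA was 13280 ± 4854 CPM per kilobase for Mylpf and 3253 ± 1174 for Myl1 (SD, n = 3). The kinases followed, with 568 ± 85.0 CPM per kilobase for Mylk2 and 433 ± 53.7 for Mylk4. Then came Myl3 at 19.7 ± 8.79, Myl6 at 16.6 ± 1.78, Myl2 at 15.3 ± 19.4, Myl6b at 3.25 ± 0.622 and Myl4 at 1.47 ± 0.758 CPM per kilobase. The libraries of Myl3, Myl6, Myl2 and Myl6b overlapped from each gene to the next in this order, and those of the other neighbours did not. In KO total RNA the order of the means was the same, with Mylpf at 24523 ± 10264 and Myl4 at 3.75 ± 0.541 CPM per kilobase (SD, n = 3). There Mylk2 overlapped Mylk4, and Myl6b overlapped Myl4. The length used moves the lower places. Per kilobase of the principal transcript, WT total RNA had Myl6 at 79.6, Myl3 at 43.0, Myl4 at 7.24 and Myl6b at 5.85 CPM per kilobase, and Mylk4 at 598 stood beside Mylk2 at 568 with overlapping libraries.

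**Figure D1:**
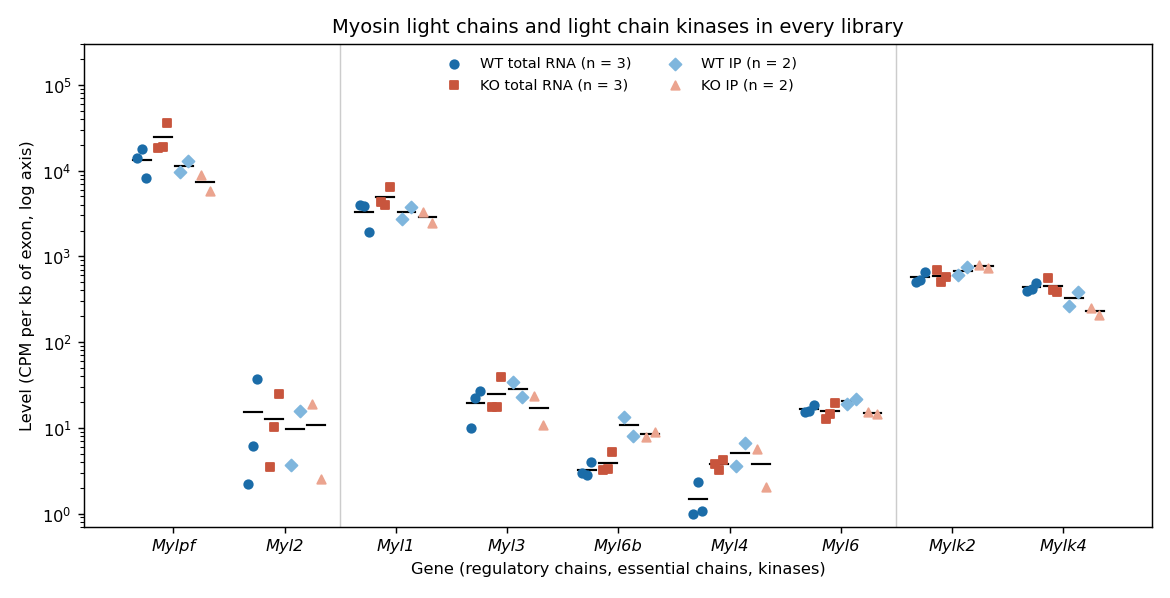
Level of each gene in every library, in CPM per kilobase of exon on a log axis, with symbols for the 4 groups and a bar at each group mean. Mylpf and Myl1 are at 1899 CPM per kilobase or more in every library, the kinases between 208 and 791, and the remaining chains at 38.8 or less.

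In total RNA, the fast light chains and the embryonic chain were higher in every KO library than in every WT library, and the other 6 genes overlapped between genotypes. After Benjamini-Hochberg adjustment of edgeR's quasi-likelihood p-values, 0 of the 9 genes passed, against 0 of 13169 genes tested (0%). Among all genes 569 (4.32%) had an unadjusted p under 0.05, as did Myl4 and Mylpf among the 9, and DESeq2 called 5 genes, none of them among the 9. Groups that did not overlap with KO higher were found for 3 of the 9 genes and for 5.06% of all genes. By library size alone, which moved the median log2 difference of all genes by -0.22, Myl4 remained the only one of the 3 without overlap. The median log2 difference of the 9 genes was 0.26, with 7 of 9 above 0, against a median of -0.01 for all genes, 48% of them above 0.

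Mylpf, the fast regulatory chain (ENSMUSG00000030672, GRCm38 chromosome 7, 127208890 to 127214298, plus strand), was the most abundant of the set. Its levels were 14809, 18869 and 8632 CPM in WT libraries 1, 2 and 3, against 19309, 20203 and 38620 CPM in KO. WT library 3 was the lowest and KO library 3 the highest, and the lowest KO library lay just above the highest WT library. The log2 difference was 0.88 ± 0.38 (SE), with an unadjusted p of 0.0438 in edgeR's quasi-likelihood test and an adjusted p of 0.897. It was 0.49 without KO library 3, 0.64 without WT library 3 and at most 1.17 with any other library left out.

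Myl1, the fast essential chain (ENSMUSG00000061816, chromosome 1, 66924295 to 66945404, minus strand), gives a longer and a shorter chain from alternative starts, which the gene counts do not separate. It stood at 8280, 8019 and 3939 CPM in WT and at 8905, 8315 and 13443 CPM in KO. WT library 3 was again low and KO library 3 high, while the other 4 libraries lay within 8019 to 8905 CPM. KO minus WT came to 0.60 ± 0.33 on the log2 scale (SE; adjusted p = 0.897), and it was 0.33 without WT library 3 and 0.36 without KO library 3.

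Most fast fibre genes outside the set were also above 0. Of 12 listed fast fibre partners, 11 had a log2 difference above 0, with a median of 0.49, and 0 passed. Pvalb, the calcium buffer parvalbumin, differed by 0.82 ± 0.30 (SE), Casq1, a calcium store protein, by 0.66 ± 0.26 and Tnnt3, fast troponin T, by 0.64 ± 0.27, each with an adjusted p of 0.897. Myh2, which encodes the type IIa heavy chain, lay below 0, with 855, 1234 and 1003 CPM in WT and 604, 593 and 667 CPM in KO and a log2 difference of -0.74 ± 0.19 (adjusted p = 0.897). The 8 skeletal fibre markers, 3 of which are also among these 12, summed to 81023 to 146105 CPM in WT and 152214 to 207386 CPM in KO. These sums were higher in each KO library than in any WT library, and their part in the Mylpf and Myl1 values was not tested.

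Across the 6 total RNA libraries, the centred log2 profile of Mylpf was closest to those of Col6a2, Cited4 and Myl1, among 7980 genes with a mean of at least 10 CPM. The root mean square distance was 0.154, 0.176 and 0.205 on the log2 scale, against 0.640 for the spread of Mylpf itself. For Myl1, the closest were Bgn at 0.057, Fitm1 at 0.079 and Tuba1a at 0.095. All of these genes shared the low value in WT library 3 and the high value in KO library 3.

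**Figure D2:**
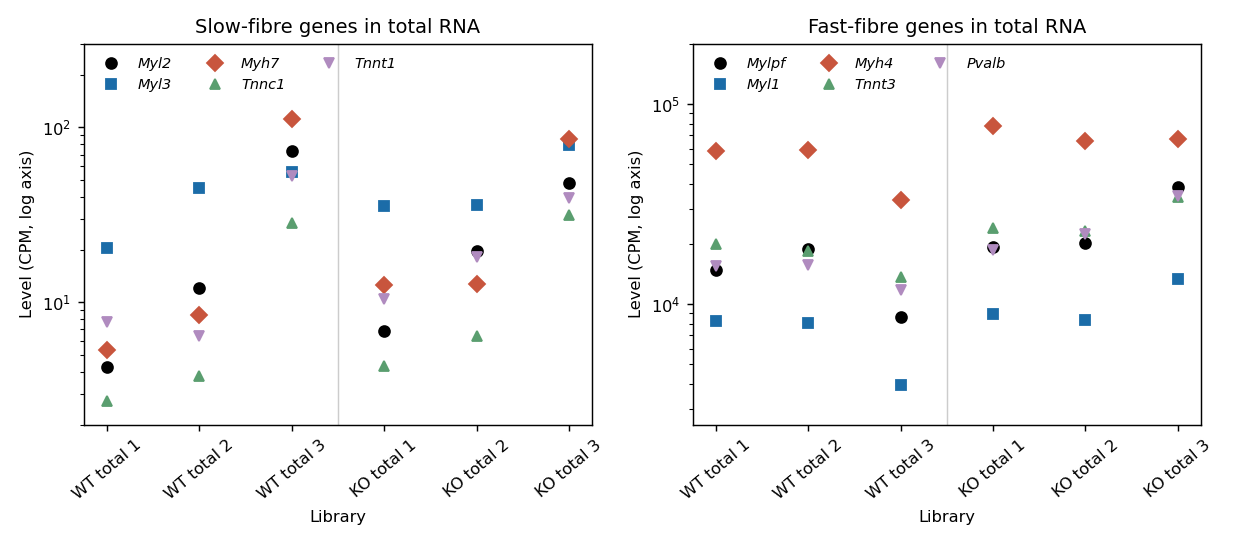
Levels of 5 slow-fibre genes (left) and 5 fast-fibre genes (right) in each of the 6 total RNA libraries, in CPM on log axes, 1 point per gene and library. Myl2, Myh7, Tnnc1 and Tnnt1 are high in WT library 3 and KO library 3, and Mylpf and Myl1 are lowest in WT library 3 and highest in KO library 3.

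Myl4, the embryonic and atrial essential chain (ENSMUSG00000061086, chromosome 11, 104550663 to 104595753, plus strand), showed the clearest difference of the set. Its counts were 64, 141 and 72 for WT against 147, 149 and 168 for KO, or 4.58, 10.9 and 5.02 CPM against 17.7, 14.7 and 19.7 CPM. Every KO library was above every WT library, and WT library 2 came nearest to the KO range. The log2 difference was 1.34 ± 0.32 (SE), or 2.54-fold, and ranked 11 of 13169 genes by p. The unadjusted p was 0.00233, and the adjusted p of 0.897 in edgeR's quasi-likelihood test did not pass.

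The Myl4 difference stayed between 1.12 and 1.86 with any 1 library left out. It was 1.84 without both WT library 2, which carries adipocyte transcripts, and KO library 1, which carries islet transcripts. With no filter on low counts its adjusted p was 0.00748, the only alternative that called it, while the other alternatives in all 6 libraries gave 0.101 (DESeq2) to 0.996. Its highest level in a total RNA library was 4.25 CPM per kilobase of all annotated exons, or 20.9 CPM per kilobase of the principal transcript.

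Other genes of immature muscle were mostly above 0 as well. Of 8 tested developmental partners, 7 had a log2 difference above 0, with a median of 0.91, and 0 passed. Dlk1, a membrane protein of developing muscle, differed by 1.55 ± 0.40 (SE), Actc1, cardiac actin that is also made in developing muscle, by 0.99 ± 0.27, Igf2 by 1.14 ± 0.48 and Myh3, embryonic myosin heavy chain, by 1.40 ± 0.64, each with an adjusted p of 0.897. Myh3 rested on KO library 1, with 31.5 CPM there against 5.99 to 7.81 CPM in the other KO libraries and 2.36 to 8.80 CPM in WT.

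Markers of other cell types that make Myl4 were read beside it. The 7 markers of satellite cells and myoblasts summed to 54.6 to 71.3 CPM in WT and 79.2 to 103.7 CPM in KO total RNA, so they moved in the same direction, and their part in the Myl4 difference was not tested. The 8 markers of cardiac or atrial muscle summed to 4.65 to 13.3 CPM in WT and 7.87 to 22.7 CPM in KO, and these ranges overlapped. Of these 8, 3 were tested and all had a log2 difference above 0, with a median of 0.56, and 0 passed. They were Tnnt2 at 0.84 ± 0.44 (SE), Sln at 0.56 ± 0.71 and Myh6 at 0.30 ± 0.72. Myl7 had 0 counts in all 10 libraries, which allows up to 0.310 CPM in a total RNA library. Nppa had 1 count in all 10 together. The part of cardiac or atrial cells in the Myl4 difference was not tested.

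The genes with profiles closest to Myl4 were Gamt, Gdf11 and Npr3, at distances of 0.345, 0.347 and 0.355 on the log2 scale against 0.819 for the spread of Myl4 itself. Within the essential chains, Myl4 accounted for 0.0247%, 0.0603% and 0.0562% of Myl1, Myl3 and Myl4 per kilobase in WT, against 0.0883%, 0.0788% and 0.0652% in KO. This share does not depend on library scaling, and the genotypes did not overlap. The mean difference was 0.0304 percentage points, and the exact two-sided permutation test gave p = 0.1, the smallest value that 3 against 3 libraries allow. The exact Clopper-Pearson 95% intervals of WT library 2 (0.0508% to 0.0711%) and KO library 3 (0.0557% to 0.0758%) overlapped. These intervals cover counting error only, and sequenced reads without molecular identifiers are not independent molecules.

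The slow chains varied more within a genotype than between genotypes. Myl2, the slow regulatory chain (ENSMUSG00000013936, chromosome 5, 122100951 to 122113472, plus strand), was counted 60, 156 and 1050 times in the WT libraries against 57, 199 and 409 times in the KO libraries, or 4.30, 12.0 and 73.3 CPM against 6.85, 19.7 and 48.0 CPM. WT library 3 and KO library 3 were high, and the genotypes overlapped over nearly the whole range. The log2 difference was -0.28 ± 0.92 (SE; adjusted p = 0.959), and a single library decided its sign, with 1.62 without WT library 3, 0.17 without KO library 1 and -1.16 without KO library 3.

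Myl3, the slow essential chain (ENSMUSG00000059741, chromosome 9, 110741861 to 110769798, plus strand), stood at 20.4, 44.99 and 55.4 CPM in WT and 35.7, 35.9 and 79.3 CPM in KO. The groups overlapped, with the highest level in KO library 3 and the lowest in WT library 1. Its log2 difference of 0.31 ± 0.40 (SE; adjusted p = 0.908) was -0.01 without WT library 1 and -0.17 without KO library 3.

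Among genes outside the set, 3 genes of slow fibres had the profiles nearest to Myl2. The profiles closest to Myl2 were those of Tnnc1, slow troponin C, Tnnt1, slow troponin T, and Myh7, the slow myosin heavy chain, at distances of 0.457, 0.594 and 0.602 on the log2 scale against 1.43 for the spread of Myl2 itself. Myh7 had 111.9 CPM in WT library 3 and 86.3 CPM in KO library 3, against 5.37 to 12.7 CPM in the other 4 libraries. Of 10 slow fibre partners, 5 were above 0 and 5 below, with a median log2 difference of -0.0050 and none passed. The sum of these 10 was 3366, 4388 and 5141 CPM in WT and 3809, 4568 and 3712 CPM in KO. It rose in the order of Myl2 in WT but not in KO, where library 3 had the lowest sum and the highest Myl2 level. Mybpc1 alone made up most of these sums, with means of 3980 CPM in WT and 3694 CPM in KO total RNA. The sums therefore say little about the rest of the partners. Myl3 was spread less than Myl2, by 0.603, and its closest profiles were those of Socs2, Adamts20 and Mustn1 at 0.254 to 0.283.

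The share of the slow form was small in every library. Myl2 made up 0.0158%, 0.0347% and 0.460% of Myl2 and Mylpf per kilobase in WT, against 0.0193%, 0.0530% and 0.0677% in KO. Myl3 made up 0.249%, 0.566% and 1.41% of Myl1 and Myl3 per kilobase in WT and 0.405%, 0.436% and 0.595% in KO. In both shares WT library 3 was above all other total RNA libraries and the rest overlapped. The KO minus WT differences of -0.124 and -0.262 percentage points gave p = 0.9 and p = 0.8 in the exact two-sided permutation test. Without WT library 3 they were 0.0214 and 0.0708 percentage points, of the opposite sign.

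**Figure D3:**
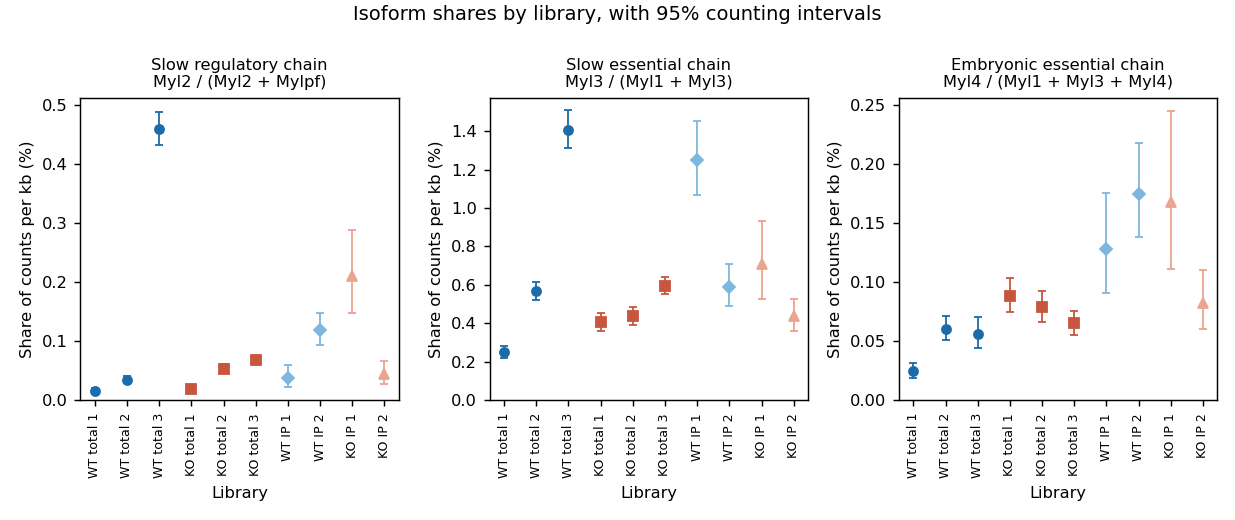
Share of the slow regulatory chain (left), the slow essential chain (middle) and the embryonic essential chain (right) in each library, in percent of counts per kilobase of exon, with exact 95% counting intervals. WT total RNA library 3 stands above the other total RNA libraries in both slow shares, at 0.460% and 1.41%, and the 3 KO total RNA libraries lie above the 3 WT libraries in the embryonic share.

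Myl6b and Myl6 lie next to each other on chromosome 10. Myl6b, an essential chain made in slow fibres (ENSMUSG00000039824, 128494157 to 128498685, minus strand), had 5.44, 5.25 and 7.33 CPM in WT and 5.89, 6.13 and 9.75 CPM in KO, from 49 to 105 counts. Myl6, the essential chain of non-muscle and smooth muscle myosin (ENSMUSG00000090841, 128490860 to 128494145, minus strand), had 49.3, 50.1 and 59.5 CPM in WT and 40.6, 46.7 and 62.5 CPM in KO. Both genes overlapped between genotypes and were highest in library 3 of each. The log2 difference was 0.26 ± 0.26 (SE) for Myl6b and -0.09 ± 0.19 for Myl6, with adjusted p of 0.899 and 0.939.

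The other light chain genes are mainly those of smooth muscle and non-muscle cells. All 4 that were tested had a log2 difference above 0, with a median of 0.45, and 0 passed. Myl9, the smooth muscle regulatory chain, had 26.3 to 49.9 CPM in WT and 50.9 to 80.6 CPM in KO, a log2 difference of 0.82 ± 0.26 (SE; adjusted p = 0.897). Myl12a, a non-muscle regulatory chain, differed by 0.33 ± 0.21 (adjusted p = 0.897). The 8 markers of smooth muscle and pericytes summed to 712 to 821 CPM in WT and 854 to 1190 CPM in KO. Rgs5 alone was the largest part of these sums, with means of 411 CPM in WT and 636 CPM in KO. The part of these markers in the Myl9 value was not tested.

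Both kinases overlapped between genotypes in total RNA. Mylk2 (ENSMUSG00000027470, chromosome 2, 152911352 to 152923068, plus strand) had 1489, 1576 and 1960 CPM in WT and 2040, 1498 and 1681 CPM in KO. Mylk4 (ENSMUSG00000044951, chromosome 13, 32700834 to 32783954, minus strand) had 3015, 3176 and 3797 CPM in WT and 4324, 3123 and 2925 CPM in KO. For both genes WT library 3 and KO library 1 were the 2 highest. The log2 difference was 0.05 ± 0.20 (SE) for Mylk2 and 0.05 ± 0.22 for Mylk4, with adjusted p of 0.969 and 0.972, and both were -0.19 when scaled by library size alone.

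The rest of the phosphorylation pathway had medians near 0. Of 10 other tested light chain kinases, 7 were above 0 with a median of 0.07, and Camk2b, a calmodulin-dependent kinase subunit of muscle, had the smallest p at 0.34 ± 0.17 (SE; adjusted p = 0.897). Mylk, the smooth muscle light chain kinase, differed by 0.00 ± 0.19, and Mylk3, the cardiac one, had at most 12 counts in a library and was not tested. The 3 calmodulin genes had a median of 0.14 and all lay above 0. The 9 genes of the light chain phosphatase and its inhibitors had a median of 0.05, with 6 above 0. None of the tested genes of these lists passed.

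**Figure D4:**
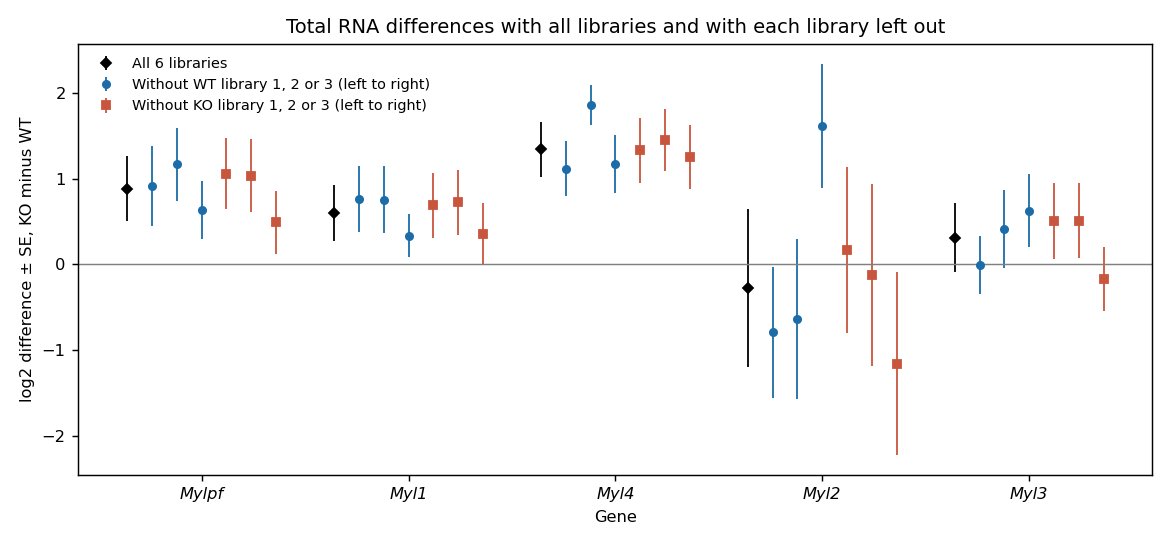
Log2 difference ± SE of KO minus WT in total RNA for 5 light chain genes, with all 6 libraries (black) and with each library left out in turn. Myl4 stays between 1.12 and 1.86, whereas Myl2 runs from -1.16 to 1.62.

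The IP of WT muscle against the IP of KO muscle asks which transcripts the antibody recovered beyond the background taken from KO muscle. Of the 9 genes, 8 had a log2 difference above 0 and the median was 0.46, against a median of -0.01 and 49.1% above 0 for all genes. None of the 9 passed, against 0 of 10730 genes tested (0%). At an unadjusted p under 0.05 edgeR's quasi-likelihood test gave 1128 genes (10.5%), Myl3 and Mylpf among them, and DESeq2 called 57 genes, none of them among the 9. The WT libraries lay above the KO libraries without overlap for Mylpf, Mylk4 and Myl6, 3 of 9 genes, against 20.6% of all genes. With 2 libraries in each group, groups apart are common. Library size alone moved the median log2 difference of all genes by -0.14 and left the same 3 genes apart with WT higher, while on that scale Mylk2 was also apart, with WT lower.

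Mylpf stood at 10340 and 13853 CPM in WT against 9429 and 6115 CPM in KO, a log2 difference of 0.63 ± 0.28 (SE; unadjusted p = 0.0409, adjusted p = 0.456). Myl3 had 70.2 and 46.4 CPM against 48.0 and 22.2 CPM, a log2 difference of 0.84 ± 0.35 (unadjusted p = 0.0319, adjusted p = 0.428), and WT library 2 lay below KO library 1. Both differences were larger without KO IP library 1, the shallowest of all, at 0.99 for Mylpf and 1.39 for Myl3. Without KO IP library 2, the deepest of the IP, they were smaller, at 0.34 and 0.26. With either library left out, the lone KO library is assumed to vary like the WT pair.

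Mylk4 stood at 2037 and 2965 CPM in WT against 1904 and 1601 CPM in KO, a log2 difference of 0.50 ± 0.25 (SE; adjusted p = 0.496). Myl6 had 60.6 and 69.7 CPM against 49.0 and 45.8 CPM, a difference of 0.46 ± 0.25 (adjusted p = 0.535). The remaining genes overlapped. Myl4 had 16.4 and 31.2 CPM against 25.9 and 9.54 CPM, Myl6b 24.8 and 14.8 against 14.4 and 16.6, Myl1 5628 and 7906 against 6829 and 5134, and Myl2 7.15 and 30.4 against 36.5 and 4.98. Their log2 differences were 0.59 ± 0.48, 0.32 ± 0.40, 0.17 ± 0.26 and 0.12 ± 0.73 (SE), with adjusted p of 0.712 to 0.972. Mylk2, with 1790 and 2221 CPM against 2333 and 2164 CPM, was the 1 gene below 0, at -0.17 ± 0.23 (adjusted p = 0.841).

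Partners of the fast chains had like differences in the IP, with 10 of 12 above 0, a median of 0.24 and 0 passed. Actn3, fast alpha-actinin, differed by 0.64 ± 0.25 (SE; adjusted p = 0.389), and Tnni2, fast troponin I, by 0.58 ± 0.25 (adjusted p = 0.428). Of 9 tested slow partners 8 were below 0, with a median of -0.43. Of those below 0, only Casq2 had its WT and KO libraries apart. Tnnt1 and Myh7, among the largest of these differences, rested on KO IP library 1, the shallowest. Tnnt1 had 60.5 CPM there, against 7.68 CPM in KO library 2 and 6.73 and 18.7 CPM in WT. Myh7 had 19.2 CPM, against 1.24 CPM in KO library 2 and 2.52 and 6.23 CPM in WT. Calm3, 1 of the 3 calmodulin genes, had 0.64 ± 0.22 (adjusted p = 0.309). Skeletal fibre markers summed to 86335 and 99560 CPM in WT libraries against 77455 and 58101 CPM in KO libraries, so these sums were lower in both KO libraries, and their part in these values was not tested. Erythroid markers summed to 156 and 310 CPM (WT) against 483 and 778 CPM (KO).

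The IP was next set against total RNA of the same genotype. In WT, Myl6b and Myl4 rose in the IP, 2 of 9 genes, where 17.6% of 14399 genes passed with a higher level, 19.4% with a lower one and 37% in either direction. Myl6b had 24.8 and 14.8 CPM in the WT IP against 5.25 to 7.33 CPM in WT total RNA, a log2 difference of 1.71 ± 0.32 (SE; adjusted p = 0.000906). Myl4 had 16.4 and 31.2 CPM against 4.58 to 10.9 CPM, a difference of 1.81 ± 0.43 (adjusted p = 0.00476). Both genes were higher in each IP library than in any WT total RNA library, as were 27.4% of all genes. Without WT IP library 2, the Myl4 difference was 1.18 with an adjusted p of 0.143. In WT IP libraries 1 and 2, islet markers summed to 45.4 and 346 CPM and adipocyte markers to 148 and 425 CPM, against 2.00 to 2.78 CPM and 72.5 to 974 CPM in WT total RNA. In KO IP libraries 1 and 2 they summed to 369.9 and 146 CPM and to 376 and 123.2 CPM. In both genotypes the IP library with the higher Myl4 level was the one with more of both marker sets, and their part in the Myl4 values was not tested.

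The other 7 genes did not pass in WT. Their log2 differences were 0.53 ± 0.43 (SE) for Myl3, 0.30 ± 0.21 for Myl6, 0.26 ± 0.23 for Mylk2, 0.00 ± 0.35 for Myl1, -0.22 ± 0.39 for Mylpf, -0.41 ± 0.26 for Mylk4 and -0.66 ± 1.07 for Myl2, with adjusted p of 0.233 to 0.994. Among the fast partners 6 of 12 fell in the IP and 1 rose, with a median of -0.75, led by the heavy chains Myh2 at -3.42 ± 0.43 (adjusted p = 5.45e-05) and Myh1 at -3.16 ± 0.44 (adjusted p = 0.000114). Myh4, a further heavy chain, stood at -1.72 ± 0.36. The fast light chains thus had values nearer to 0 than these heavy chains, a contrast between genes that was not tested. Values near 0 were not confined to the light chains. Of the 12 fast partners 5 were above 0 and 7 below, with Tnni2 at 0.23 ± 0.33 and Actn3 at 0.11 ± 0.34.

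In KO, where the IP was taken as background, Myl6b also rose and Mylpf and Mylk4 fell. These were 3 of 9 genes, against 36.5% of all genes (17.7% higher and 18.8% lower). Myl6b had 14.4 and 16.6 CPM in the KO IP and 5.89 to 9.75 CPM in KO total RNA, a log2 difference of 1.12 ± 0.33 (SE; adjusted p = 0.0168). Mylpf had 9429 and 6115 CPM against 19309 to 38620 CPM, a difference of -1.74 ± 0.42 (adjusted p = 0.0051). Mylk4 had 1904 and 1601 CPM against 2925 to 4324 CPM, a difference of -0.98 ± 0.27 (adjusted p = 0.0113). In all 3 the IP and total RNA libraries were apart, as they were for 61.3% of all genes. The call of Mylk4 was lost with library size alone (-0.56, adjusted p = 0.0895), a scaling that shifted the all-gene median by 0.43 and the share of higher calls from 48.6% to 74.8%.

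The KO calls did not hold with every library left out, although each called gene kept its direction. Over these fits the log2 difference ran from -2.10 to -1.34 for Mylpf, -1.12 to -0.79 for Mylk4 and 0.98 to 1.39 for Myl6b. Leaving out KO IP library 2 keeps only library 1 in that group. Without KO IP library 2, the deeper one, none of the 9 genes passed, with adjusted p of 0.226 for Myl6b, 0.0907 for Mylpf and 0.117 for Mylk4, and 2148 genes passed in all against 5251. Without KO total RNA library 1, Myl6b and Mylk4 had adjusted p of 0.0594 and 0.0552, and without library 2 Myl6b had 0.0563. Of the genes that did not pass, Myl1 stood at -0.77 ± 0.35 (SE; adjusted p = 0.101), Mylk2 at 0.37 ± 0.23, Myl3 at -0.63 ± 0.48, Myl4 at -0.17 ± 0.47, Myl6 at -0.08 ± 0.22 and Myl2 at -0.63 ± 1.18. The fast partners had 8 of 12 genes lower and a median of -1.49.

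Light chains of smooth muscle and non-muscle cells also moved between total RNA and IP, in both genotypes. Myl9 rose by 2.64 ± 0.27 (SE; adjusted p = 1.61e-05) in WT and by 2.22 ± 0.27 (adjusted p = 4.9e-05) in KO, and Myl12b, a non-muscle regulatory chain, by 1.30 ± 0.25 (adjusted p = 0.00134) and 1.29 ± 0.25 (adjusted p = 0.00142). Its close relative Myl12a fell, by 0.73 ± 0.23 in WT (adjusted p = 0.0228) and by 0.99 ± 0.23 in KO (adjusted p = 0.00471). Of the 8 smooth muscle and pericyte markers, 4 rose and 1 fell in the WT IP and 3 rose and 1 fell in the KO IP. The actin-binding protein genes Tagln and Cnn1 rose by 2.27 ± 0.27 (adjusted p = 3.46e-05) and 3.01 ± 0.49 (adjusted p = 0.000357) in WT, and by 1.13 ± 0.27 (adjusted p = 0.00506) and 2.49 ± 0.53 (adjusted p = 0.00256) in KO. The sum over the 8 markers was 831 and 1045 CPM in the WT IP, above the 712 to 821 CPM of WT total RNA. In the KO IP it was 861 and 962 CPM, within the 854 to 1190 CPM of KO total RNA. Rgs5 was again the largest part, with means of 368 CPM in the WT IP and 428 CPM in the KO IP. The part of these markers in the Myl9 values was not tested.

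**Figure D5:**
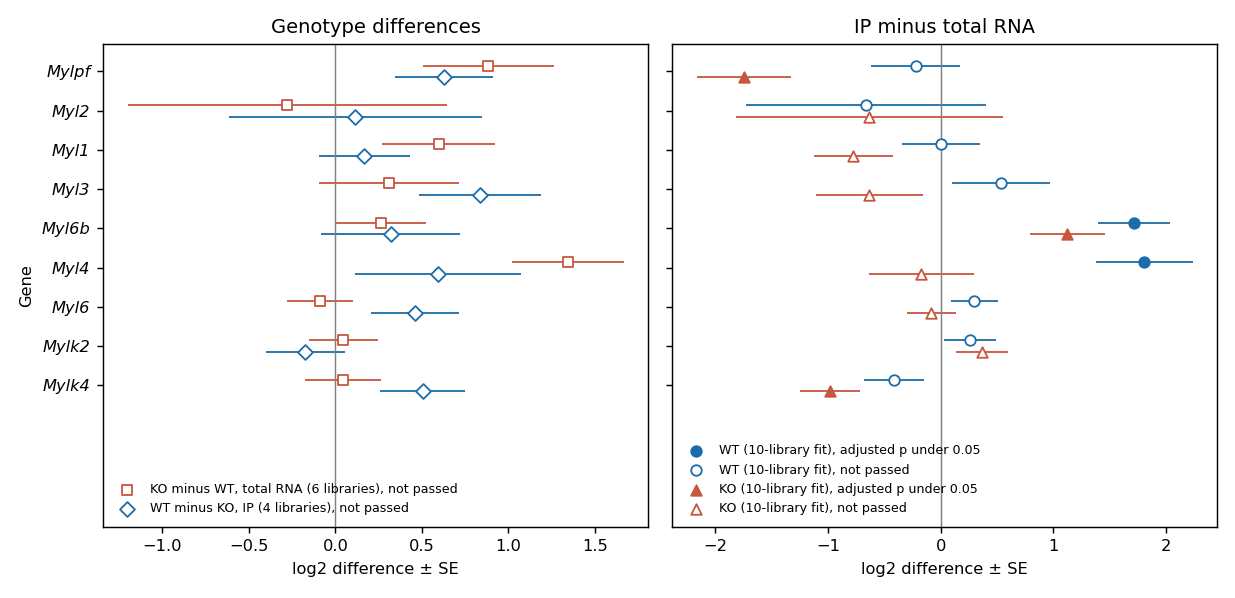
Log2 difference ± SE of each gene between genotypes (left: KO minus WT in total RNA, WT minus KO in the IP) and between IP and total RNA (right: in WT and in KO), with filled symbols for an adjusted p under 0.05. No genotype difference passed, and Myl4 and Myl6b in WT and Myl6b, Mylpf and Mylk4 in KO passed between IP and total RNA.

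Whether the IP over total RNA ratio differed between genotypes was tested as an interaction over all 10 libraries. It uses the same libraries as the comparisons above and is no separate evidence. None of the 9 genes passed, against 1 of 14399 genes (0.00694%). At an unadjusted p under 0.05 there were 1703 genes (11.8%), Myl4 and Mylpf among them, and DESeq2 called 17 genes, none of them among the 9. The WT minus KO value was 1.98 ± 0.64 (SE) for Myl4, with an unadjusted p of 0.00759 and an adjusted p of 0.342. For Mylpf it was 1.52 ± 0.56 (unadjusted p = 0.0156, adjusted p = 0.347). The higher levels in KO total RNA enter both values. In the genotype fits KO minus WT in total RNA was 1.34 for Myl4 and 0.88 for Mylpf. WT minus KO in the IP was 0.59 and 0.63.

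With no filter on low counts both interactions passed, at adjusted p of 0.00273 for Myl4 and 0.0142 for Mylpf, and 263 genes passed in all. The other values were 1.16 ± 0.65 (SE) for Myl3, 0.78 ± 0.49 for Myl1, 0.59 ± 0.46 for Myl6b, 0.57 ± 0.37 for Mylk4, 0.38 ± 0.31 for Myl6, -0.03 ± 1.61 for Myl2 and -0.11 ± 0.33 for Mylk2, with adjusted p of 0.484 to 1. Scaling by library size shifted the all-gene median by -0.38, and on that scale Myl4 stood at 1.58 and Mylpf at 1.17.

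The bases upstream of a fast and a slow chain gene are given for the motifs known from muscle promoters. They come from RefSeq (GRCm38.p6), read 5′ to 3′ on the plus strand, end at the base before the annotated start or first exon, and carry matched motifs in capitals.
Mylpf promoter, chr7:127211358-127211607: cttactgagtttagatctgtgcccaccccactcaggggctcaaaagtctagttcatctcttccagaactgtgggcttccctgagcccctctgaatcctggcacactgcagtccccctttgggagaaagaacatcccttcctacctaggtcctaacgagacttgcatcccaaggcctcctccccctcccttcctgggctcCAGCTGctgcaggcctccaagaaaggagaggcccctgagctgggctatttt
Myl3 promoter, chr9:110763428-110763645: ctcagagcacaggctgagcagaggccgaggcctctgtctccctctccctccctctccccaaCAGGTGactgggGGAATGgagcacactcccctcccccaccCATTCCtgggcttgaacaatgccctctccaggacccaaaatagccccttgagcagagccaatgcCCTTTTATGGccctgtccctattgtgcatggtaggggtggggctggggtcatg

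Both strands were searched for the E-box CANNTG, bound by MyoD family factors, the MCAT element CATTCC, the CArG box of serum response factor and the MEF2 site. The Mylpf window held 1 E-box, and the Myl3 window held 1 E-box, 2 MCAT elements and 1 CArG box. Of 32851 RefSeq promoter windows of 250 bases, 66.2% held an E-box, 12.6% an MCAT element, 1.5% a CArG box and 2.9% a MEF2 site. A match is a description of letters and not of a bound site.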

How the data were processed

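Total RNA and IMP2 antibody IP of mouse skeletal muscle were measured in 10 libraries prepared with an Illumina TruSeq kit. The deposited files hold unscaled read counts per Ensembl gene, made by the authors with STAR and HTSeq on mm10 (GRCm38), per the submitters' processing notes. Their versions, the annotation release and the strand setting are not given in the sources used here. Unassigned reads, left out of all totals, were those with several alignments (26.1% to 43.3% of a library), those outside genes (8.54% to 11.2%) and ambiguous ones (3.30% to 6.03%). Symbols from GENCODE M21 were found for 42462 of 43629 genes.

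After a filterByExpr filter and TMM scaling, genes were tested with edgeR 4.0.16 (quasi-likelihood F test, two-sided, Benjamini-Hochberg over all genes, threshold 0.05) in R 4.3.3, with group as the only term. The genotype fits used the 6 total RNA or the 4 IP libraries, and comparisons of IP with total RNA used all 10. The script was tested on simulated data. Alternatives were DESeq2 1.42.0, library size alone, no filter on low counts, all 10 libraries in a single fit, a replicate block, each library left out, and other gene lengths. Some lengths and the overlap of groups under other scalings were added after seeing the data. The limit set by a count of 0 was taken as 3 counts, equal to 0.203 to 0.310 CPM in total RNA and 0.743 to 3.27 CPM in the IP.

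The 9 genes and all gene lists were chosen with earlier results of these data known. Named genes are the 9, of each list up to 4 genes with the smallest p in a comparison, and the 3 genes with the closest profile (root mean square difference of centred log2 CPM, prior count 2, genes with a mean of at least 10 CPM). Genes named beside these, such as Mylk, Mylk3, Myl7 and Nppa, are list members chosen after their values were seen.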

Additional observations from a re-analysis of the deposited data

How the results depend on the processing

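IP libraries of 917462 to 4037480 counts and 2 per group limit what can be shown, and Myl2, Myl4 and Myl6b had 15 to 80 counts in an IP library. Of 207 values of the 9 genes under settings other than leaving out a library, 178 kept their direction and side of the threshold, 18 changed sign, 10 gained and 1 lost a call. Of 360 with a library left out, 316 kept both, 34 changed sign, 3 gained and 7 lost a call. Where a cause is not evident from the setting, the cause was not tested.

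Counts of called genes for total RNA were 5 with DESeq2 and 64 with no filter, against 0. For the IP they were 57 with DESeq2, 103 with no filter, 1 with library size, 1 with all libraries in 1 fit and 13 to 146 with a library left out, against 0. For the interaction they were 17, 263, 0 with library size and 0 to 1 with a library left out, against 1. For KO IP against total RNA they were 2148 to 5706 with a library left out, against 5251.

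The following log2 values changed sign. For total RNA these were Mylk2 (-0.19) and Mylk4 (-0.19) by library size, and Myl6 (0.0044), Mylk2 (-0.12) and Mylk4 (-0.17) without WT library 2 and KO library 1. In the IP, Myl2 was -0.14 with DESeq2 and -0.049 by library size. In WT IP against total RNA, Myl1 was -0.042 with no filter. By library size Myl4 was 0.30 and Myl6 0.36 in KO IP against total RNA, and Myl6 was -0.022 in the interaction.

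With a library left out, total RNA values ran from -1.16 to 1.62 for Myl2, -0.17 to 0.63 for Myl3, -0.27 to 0.042 for Myl6, -0.076 to 0.19 for Mylk2 and -0.14 to 0.17 for Mylk4. IP values ran from -0.091 to 0.40 for Myl1, -1.31 to 1.92 for Myl2, -0.14 to 1.32 for Myl4 and -0.10 to 0.65 for Myl6b. WT IP against total RNA ran from -0.34 to 0.21 for Myl1, -2.14 to 1.22 for Myl2 and -0.53 to 0.049 for Mylpf. KO IP against total RNA ran from -2.32 to 0.54 for Myl2, -0.87 to 0.57 for Myl4 and -0.21 to 0.11 for Myl6. The interaction ran from -1.38 to 1.88 for Myl2 and -0.24 to 0.033 for Mylk2. The slow shares ran from -0.201 to 0.0214 (Myl2) and -0.508 to 0.0708 (Myl3) percentage points.

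Whether replicate numbers pair the IP with total RNA libraries was not settled, and the main fits treated all libraries as unpaired. Deviations of same-numbered WT and KO total RNA libraries correlated at 0.0914, -0.109 and -0.296 across 14399 genes, and those of the IP at -0.0469. Those of same-numbered IP and total RNA libraries correlated at 0.107 and 0.0947 in WT and 0.126 and 0.149 in KO. Between libraries 1 and 2, differently numbered pairs gave -0.107 and -0.0947 in WT and -0.126 and -0.149 in KO. With 2 IP libraries per genotype, deviations from their mean are mirror images. These values are therefore the same-numbered ones with the sign reversed and add no information on pairing. A replicate block gave 0 called genes for total RNA, 28 for the IP and 147 for the interaction, where Myl4 was 1.74 (adjusted p = 0.0401). It changed the sign of Myl2 in total RNA (0.20), WT IP (1.11, adjusted p = 0.0019) and KO IP (0.10) against total RNA and the interaction (1.01), of Myl1 in WT IP (-0.29), of Myl6 in KO IP (0.10) and of Mylk2 in the interaction (0.018). It also called Myl3 (0.91) and Mylpf (-0.48) in WT and Myl1 (-0.54) in KO IP against total RNA.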
